A study of Homo sapiens with 32 samples.

Results

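The mitochondrial carriers of the SLC25 family were examined for N6-methyladenosine (m6A) on their transcripts in renal cells with and without SETD2. The family was taken as all protein-coding genes of the GRCh38 RefSeq gene table whose symbol starts with SLC25A, which gave 48 genes of 20037 protein-coding genes on chromosomes 1 to 22, X and Y. A called m6A peak was counted for a gene if it overlapped the gene body, the span from the first to the last annotated base, by at least 1 bp. Over all 16 immunoprecipitated (IP) libraries, 825 peaks of 474004 lay in an SLC25A gene.

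The data come from methylated RNA immunoprecipitation sequencing (MeRIP-seq), in which an antibody against m6A enriches methylated RNA fragments and peaks are called where the IP exceeds the Input. The study compared 786-O, a clear cell renal cell carcinoma (ccRCC) line, with RPTEC, renal proximal tubule epithelial cells immortalized with hTERT that serve as a surrogate for normal tissue. In each of the 2 cell lines there were 4 lines: the WT parent, the CRISPR/Cas9 clones SETD2KO-1 and SETD2KO-2, and SETD2KO-1R, a clone derived from SETD2KO-1 with FLAG-tagged full-length SETD2 put back. Each line gave 2 IP libraries, so that each cell line had 4 SETD2KO libraries and 4 SETD2-expressing libraries (WT and SETD2KO-1R). Each knockout and rescue is 1 clone, and nothing in the labels says that the 2 libraries of a line came from separate cultures, so p-values concern these lines and the spread between their libraries, which may be technical. The lists of the 2 cell lines carry different experiment names, so that cell line and experiment cannot be told apart.

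SLC25 carriers are built from tandem repeats of paired membrane helices and move nucleotides, amino acids, carboxylates, cofactors and ions across the inner mitochondrial membrane, alternating between states open to the cytosol and to the matrix. They link the cytosol to the citric acid cycle, oxidative phosphorylation, amino acid breakdown and iron-sulfur cluster assembly, all of which are active in proximal tubule cells. m6A is written on nascent RNA by the METTL3/METTL14 complex, mostly in a GGAC-like context, and SETD2 is the methyltransferase that places H3K36me3 on the bodies of transcribed genes.

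The lists held 25710 to 39670 peaks in 786-O and 19249 to 31207 in RPTEC. No reads come with them, so their depth is unknown here, and the absence of a peak does not tell an unmethylated transcript from one too scarce to be called. Of 12 markers of renal epithelium and ccRCC, PAX8, PAX2, KRT8 and KRT18 had a peak in all 16 libraries and VIM in 8 libraries of 786-O and 6 of RPTEC, whereas LRP2, AQP1, SLC34A1, CDH1 and CA9 had none in any. CUBN had a peak in 1 library of 786-O alone and EPCAM in 2 libraries of RPTEC alone.

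Peaks covered an annotated transcription start of several carriers, and a GGAC lay within the first 50 transcribed bases of 7 of the 21 SLC25A start windows that a peak covered in any library. RefSeq lists 51 such windows, for 40 of the 48 genes on GRCh38.p14, and some are alternative starts inside the gene. The letters GGAC were searched on the sense strand only, since m6A is read in RNA, and were held by 19.8% of the same windows of all protein-coding genes and by 33.3% of all SLC25A windows, the same share as among those under a peak. The windows with a GGAC that were under a peak in at least 4 libraries are shown, GGAC in capitals, 5′ to 3′ as DNA, because they give the called peak at an annotated start its sequence context. The start shown for SLC25A28 lies inside the gene body used here, in a region whose midpoint is 80.7% of the way along it. A match is a description of the window and does not place the modified base.
SLC25A28, chr10:99620403-99620422, minus strand, peak in 10 libraries: cctgaggcGGACactacggg
SLC25A11, chr17:4940018-4940037, minus strand, peak in 6 libraries: cgggtgtcGGACctgagagc
SLC25A29, chr14:100306412-100306431, minus strand, peak in 4 libraries: ccgccgagGGACcagcgcgg
SLC25A23, chr19:6459749-6459768, minus strand, peak in 4 libraries: agccgagcGGACtgcgcgga
The start windows of SLC25A46, SLC25A22 and SLC25A10 were covered in 8, 5 and 5 libraries and held no GGAC. For SLC25A22, whose covered window is an alternative start inside the gene, all 5 libraries were of 786-O.

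Of the 48 SLC25A genes, 36 (75.0%) had a peak in at least 1 library, 11 (22.9%) had one in all 16 and 12 (25%) had none. The same shares over all protein-coding genes were 67.0%, 23.1% and 33.0%, and the median gene length was 26783 bp for the SLC25A genes and 24115 bp for all. In 786-O, 35 of the genes had a peak in some library and 14 in all 8. In RPTEC, 29 had a peak in some library and 11 in all 8.

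**Figure D1:**
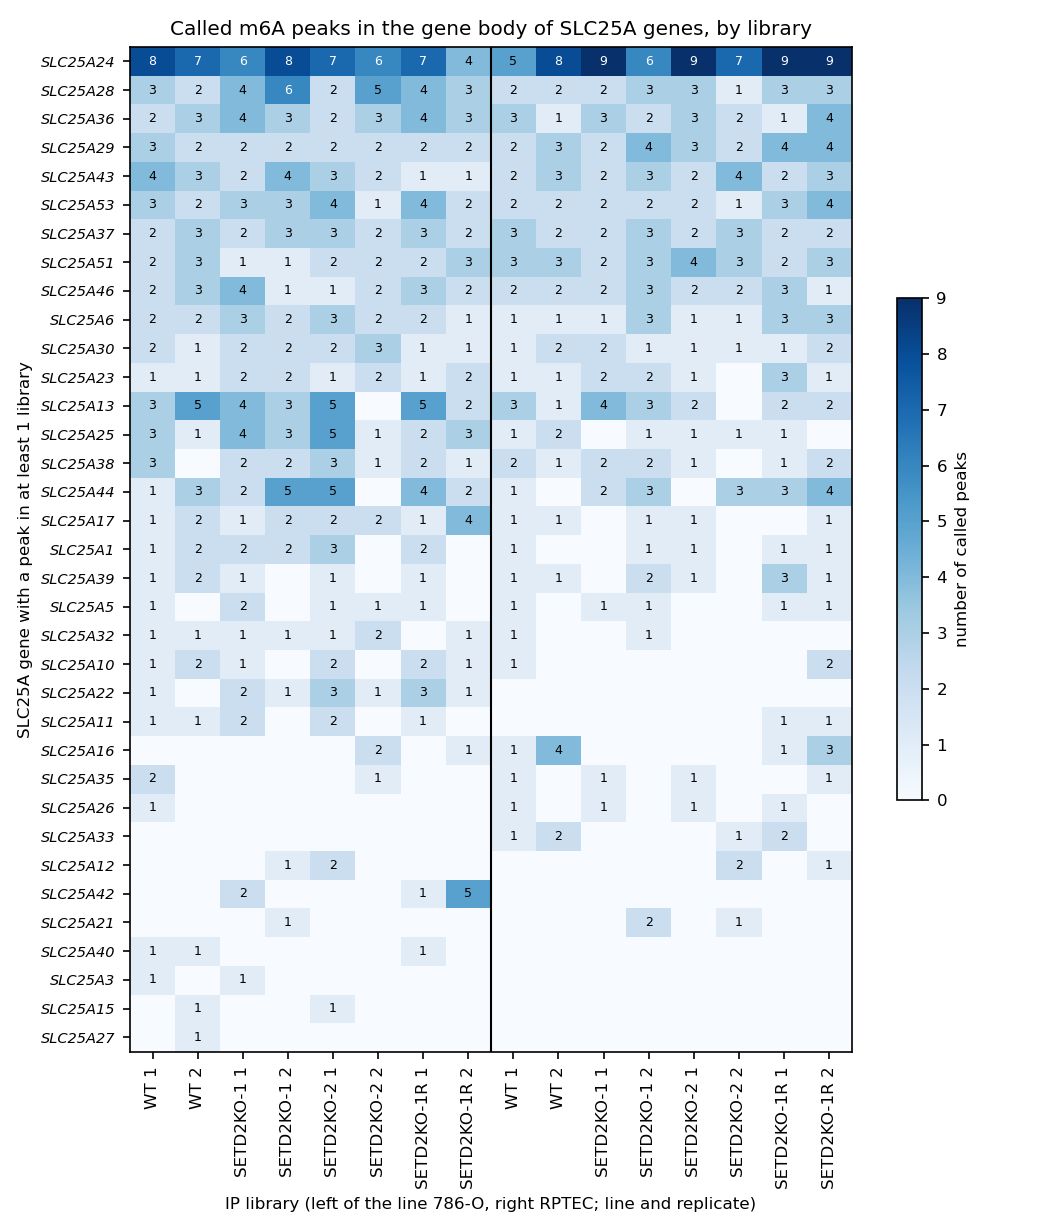
Number of called peaks in the gene body of 35 SLC25A genes with a peak in at least 1 library (rows, ordered by the number of libraries with a peak) in each of the 16 IP libraries (columns, 786-O left of the line and RPTEC right of it). The 11 genes at the top have a peak in every library, and SLC25A22, with peaks in 7 libraries of 786-O, has none in RPTEC.

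The 11 genes with a peak in every library came from most of the family's substrate groups. SLC25A24, the calcium-regulated ATP-Mg/phosphate carrier, had the most peaks, 4 to 8 per library in 786-O and 5 to 9 in RPTEC. SLC25A6, the ADP/ATP carrier ANT3, had 1 to 3 peaks in each cell line. The mitoferrins SLC25A28 and SLC25A37, which import iron, had 2 to 6 and 2 to 3 peaks per library in 786-O and 1 to 3 and 2 to 3 in RPTEC. The pyrimidine nucleotide carrier SLC25A36 and the NAD+ carrier SLC25A51 had 2 to 4 and 1 to 3 peaks in 786-O and 1 to 4 and 2 to 4 in RPTEC. The basic amino acid carrier SLC25A29 had 2 to 3 peaks in 786-O and 2 to 4 in RPTEC. SLC25A30, an uncoupling-protein-like carrier first described in kidney, had 1 to 3 and 1 to 2 peaks. The remaining genes were SLC25A46, an outer-membrane member linked to mitochondrial dynamics, with 1 to 4 and 1 to 3 peaks, and SLC25A53 and SLC25A43, carriers without a settled substrate. SLC25A53 had 1 to 4 peaks per library in both cell lines, and SLC25A43 had 1 to 4 in 786-O and 2 to 4 in RPTEC.

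No peak was called in any library for 12 genes. They included the ADP/ATP carriers SLC25A4 (ANT1, of heart and muscle) and SLC25A31 (ANT4, of germ cells), SLC25A41, SLC25A52 and the single-exon ornithine carrier SLC25A2. They also included the carnitine-acylcarnitine carrier SLC25A20, which feeds fatty acids to β-oxidation, the glutamate carrier SLC25A18 and the uncoupling-protein-like SLC25A14. The other 4 were SLC25A34, SLC25A45, SLC25A47 and SLC25A48. Because these are bulk libraries, fewer cells with a transcript and less RNA per cell cannot be told apart.

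By substrate group, the cofactor, nucleotide, glutathione and iron carriers had a peak for 13 of 14 genes and in all 16 libraries for 4. The adenine nucleotide and phosphate carriers had one for 6 of 9, the amino acid carriers for 7 of 9, the carboxylate, keto acid and acylcarnitine carriers for 4 of 5, and the uncoupling-protein-like carriers for 2 of 3. Among the carriers without a settled substrate, 4 of 8 had a peak and 3 of those in every library. None of the 5 carboxylate, keto acid and acylcarnitine carriers had a peak in all 16 libraries.

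The 4 ADP/ATP carriers, close paralogs whose reads the alignment could have split, differed in calls. SLC25A4 and SLC25A31 had none. SLC25A6 was called in 16 libraries, mainly in a region at chrX:1386348-1387096, whose midpoint lies 90.4% of the way along the gene and which was called in all 16. SLC25A5 (ANT2) was called in 10 libraries, through a region at chrX:119469265-119469689 that 5 libraries of each cell line called. Of the 43 SLC25A pseudogenes in the gene table, 1 had a peak, SLC25A1P5, in 9 libraries, 6 of 786-O and 3 of RPTEC.

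The number of SLC25A genes with a peak in a library ranged from 21 to 29 with a median of 25 in 786-O and from 16 to 26 with a median of 21 in RPTEC. In 786-O, 24.2 ± 2.75 genes (SD, n = 4) had a peak in SETD2KO libraries and 25.5 ± 2.52 (SD, n = 4) in SETD2-expressing ones. In RPTEC the numbers were 19 ± 2.58 and 23 ± 2.94 (SD, n = 4 each). The ranges of the SETD2KO and SETD2-expressing libraries overlapped in both cell lines, 21 to 27 against 23 to 29 and 16 to 22 against 19 to 26. Per 10000 peaks of the list, SLC25A genes held 17.4 ± 1.61 peaks in 786-O and 17.5 ± 1.06 in RPTEC (SD, n = 8 each).

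**Figure D2:**
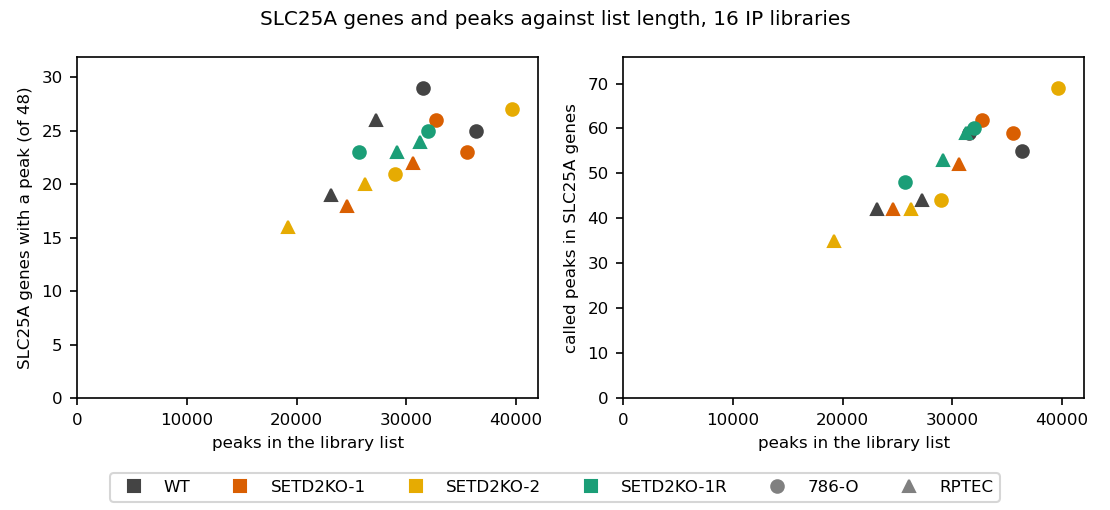
SLC25A genes with a called peak (left, of 48) and called peaks in SLC25A genes (right) against the number of peaks in the library list, for the 16 IP libraries (circles 786-O, triangles RPTEC, colours the lines). The shortest list, with 19249 peaks, has 16 genes with a peak and the longest, with 39670, has 27.

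Peaks were ranked within their library by the deposited score, whose scale is not stated, and the percentile rank of the best peak of each gene was compared (100 is the top of the list). Over the SLC25A genes with a peak, the median best-peak percentile of a library was 62.9 ± 2.93 in 786-O and 68.1 ± 6.43 in RPTEC (SD, n = 8 each), against 74.7 ± 1.22 and 72.6 ± 1.29 for all protein-coding genes with a peak. SLC25A6 stood highest in both cell lines. Its best peak had a lowest, median and highest percentile of 93.3, 97.2 and 99.2 in the 8 libraries of 786-O and of 96.1, 98.4 and 99.9 in those of RPTEC.

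Below SLC25A6 in 786-O, among genes with a peak in at least 6 of 8 libraries, came the citrate carrier SLC25A1 (93.1 ± 3.5, SD, 6 libraries), SLC25A36 (91.6 ± 3.3), SLC25A53 (90.7 ± 4.9) and SLC25A37 (88.1 ± 6.4, SD, n = 8 for these), whose values overlapped between neighbours. In RPTEC, among genes with a peak in at least 6 of 8 libraries, the order was SLC25A36 (88.8 ± 6.7), SLC25A37 (87.4 ± 5.1), SLC25A53 (85.6 ± 5.6) and SLC25A29 (81.5 ± 8.8, SD, n = 8 each), again with overlapping values, while SLC25A1 stood at 96.5 ± 2.9 (SD) in the 5 libraries of RPTEC that called it. Among the lowest of the genes with a peak in at least 6 of 8 libraries were the folate and FAD carrier SLC25A32 (38.2 ± 11.2, 7 libraries) and citrin, SLC25A13 (39.0 ± 18.5, 7 libraries) in 786-O. In RPTEC the lowest were the ATP-Mg/phosphate carrier SLC25A25 (29.3 ± 24.9, 6 libraries), the glutathione carrier SLC25A39 (30.7 ± 18.6, 6 libraries) and the glycine carrier SLC25A38 (39.0 ± 15.9, 7 libraries). SLC25A5 ranked at 92.3 ± 4.1 in the 5 libraries of 786-O that called it and at 94.4 ± 3.2 in the 5 of RPTEC, and it was not called in the other 6.

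**Figure D3:**
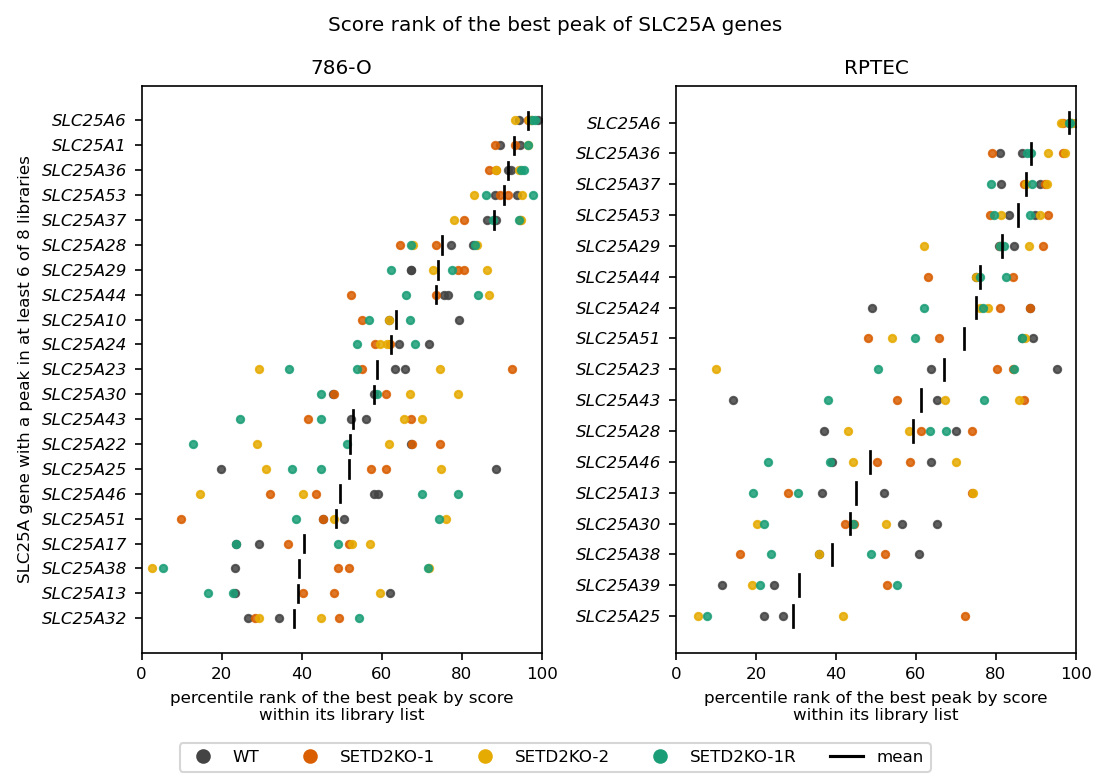
Percentile rank, by score within the library list, of the best peak of SLC25A genes with a peak in at least 6 of the 8 libraries of 786-O (left, 21 genes) or RPTEC (right, 17 genes). Points are libraries coloured by line and the black bar is their mean; SLC25A6 sits at the top of both panels and SLC25A25 at the foot of the right one.

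Peaks of SLC25A genes were merged over the 16 libraries into 177 regions, of which 10 (5.65%) were called in all 16 and 67 (37.9%) in 1. The shares over the 82676 regions in protein-coding genes were 4.86% and 35.6%. The regions called in all 16 libraries lay in SLC25A24, SLC25A28, SLC25A30, SLC25A29, SLC25A36, SLC25A51, SLC25A6 and SLC25A53, with 1 each, and in SLC25A37, with 2. The region of SLC25A36 at chr3:140975982-140976764 had a mean percentile of 90.2 where called, that of SLC25A53 at chrX:104129882-104131460 had 88.1, and that of SLC25A28 at chr10:99610883-99611603, close to the end of the gene, had 62.4. The region of SLC25A51 at chr9:37887528-37888412 overlaps the pseudogenes PAICSP1 and TMX2P1, so its peaks cannot be assigned to 1 gene without strand.

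Peak midpoints were placed along the gene body. For the genes with a known strand, 10.6% ± 3.39 of SLC25A peaks in 786-O and 14.4% ± 4.99 in RPTEC lay in the last 10% of the gene (SD, n = 8 libraries each), against 19.9% ± 1.13 and 21.3% ± 1.28 of peaks in all protein-coding genes. Measured in bases, 12.5% ± 3.60 and 12.6% ± 2.22 of SLC25A peaks lay within 2000 bp of the gene end, against 13.0% ± 0.733 and 13.4% ± 0.717. The share in the last 10% was below that of all protein-coding genes in every 786-O library (at most 15.8% against at least 17.5%), the values overlapped in RPTEC, and the share within 2000 bp overlapped in both cell lines. Neither was tested, and the gene table holds no exons, so coding and untranslated parts could not be separated.

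The first question was whether the number of peaks in SLC25A genes differed between SETD2KO and WT. The number of peaks per gene was compared on the log2(peaks + 1) scale with limma, for the 12685 protein-coding genes with a peak in at least 2 libraries, 35 of them SLC25A genes, with Benjamini-Hochberg adjustment over all genes tested. In 786-O, 1 SLC25A gene passed the adjusted threshold of 0.05. This was the glutathione carrier SLC25A40, with fewer peaks in SETD2KO. Over all genes tested 2.07% were called and 1.00% were called lower, so 1 of 35 is near the background. At an unadjusted p under 0.05 there were 3 SLC25A genes of 35, and 10.3% of all genes tested.

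SLC25A40 had 1 peak in each WT library of 786-O, 0 in all 4 SETD2KO libraries, 1 and 0 in the SETD2KO-1R libraries and 0 in all 8 libraries of RPTEC. The difference was -1.0 ± 0.21 (SE) with a limma adjusted p of 0.044. All 3 of its peaks were in SETD2-expressing libraries, so it met the filter on low values through that group alone. They lay at 3 different places, chr7:87838640-87838943, chr7:87867125-87867412 and chr7:87876310-87876592, each called in 1 library, and the last overlaps DBF4. Replicates of SLC25A40 differed in 1 of the 8 lines. Replicates differed in at most 1 line for 43.7% of the 263 genes called and for 6.41% of all genes tested. The call was lost without any 1 of the 6 libraries compared (adjusted p from 0.088 to 0.220) and with the gene filter set at 8 libraries, which leaves SLC25A40 out. The other largest differences in 786-O were -0.79 for SLC25A39, also a glutathione carrier, and -0.65 for the dicarboxylate carrier SLC25A10, and 0.90 for the glutamate carrier SLC25A22, 0.65 for the aspartate/glutamate carrier SLC25A12 and 0.54 for SLC25A38, none of which passed (adjusted p of 0.44 or more).

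In RPTEC no SLC25A gene passed in SETD2KO against WT, where 2.25% of all genes tested were called. At an unadjusted p under 0.05 there were 2 of 35, below the 11.2% of all genes tested. These were SLC25A16, a carrier linked to coenzyme A transport, at -1.66 ± 0.51 (SE, adjusted p = 0.19), and the pyrimidine nucleotide carrier SLC25A33 at -1.04 ± 0.40 (SE, adjusted p = 0.34). With an equal number of top-scored peaks from each library, SLC25A16 passed (adjusted p = 0.042). The other largest differences were -0.54 for SLC25A25, 0.90 for the branched-chain amino acid carrier SLC25A44, 0.65 for the oxodicarboxylate carrier SLC25A21 and 0.40 for SLC25A12.

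Rescue was compared with its parent clone, SETD2KO-1R against SETD2KO-1. No SLC25A gene passed in 786-O, where 1.47% of all genes tested were called, or in RPTEC, where 1.54% were. At an unadjusted p under 0.05 there were 2 and 1 genes of 35, below the 10.5% and 9.20% of all genes tested, and their values are given as a description. In 786-O, SLC25A51 had 1 and 1 peaks in SETD2KO-1 and 2 and 3 in SETD2KO-1R, a difference of 0.79 ± 0.23 (SE, adjusted p = 0.19). SLC25A43 had 2 and 4 peaks in SETD2KO-1 and 1 and 1 in SETD2KO-1R, a difference of -0.95 ± 0.34 (SE, adjusted p = 0.29). The other extremes in 786-O were 1.0 for SLC25A42 and 0.79 for SLC25A10, and -0.79 for SLC25A1 and -0.58 for SLC25A30. In RPTEC they were 1.5 for SLC25A16, 1.0 for the oxoglutarate carrier SLC25A11 and 0.79 for SLC25A33, and -0.79 for SLC25A21, -0.58 for SLC25A13 and -0.50 for SLC25A32.

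Over all 4 SETD2KO against all 4 SETD2-expressing libraries, no SLC25A gene passed in either cell line, where 2.20% (786-O) and 2.77% (RPTEC) of all genes tested were called, with 3 and 2 SLC25A genes of 35 at an unadjusted p under 0.05, below the 11.3% and 12.5% of all genes tested. This comparison shares its libraries with those above. The median difference was 0.00 over the 35 SLC25A genes in both cell lines, and 0.00 and -0.09 over all genes tested. In 786-O the extremes were -0.75 for SLC25A40 (adjusted p = 0.056), -0.65 for SLC25A10 and -0.50 for SLC25A42, and 0.65 for SLC25A12, 0.54 for SLC25A30 and 0.40 for SLC25A5. In RPTEC they were -1.58 for SLC25A16, -0.79 for SLC25A33 and -0.65 for SLC25A10, and 0.65 for SLC25A21, 0.21 for SLC25A36 and 0.15 for SLC25A46.

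SLC25A16 in RPTEC was the SLC25A gene whose peak numbers did not overlap between SETD2KO and SETD2-expressing libraries. It had 1 and 4 peaks in WT, 0 in all 4 SETD2KO libraries, and 1 and 3 in SETD2KO-1R. The difference was -1.58 ± 0.41 (SE) with a limma adjusted p of 0.090, and the exact permutation test gave p = 0.029, the smallest that 4 against 4 libraries allow, which is an adjusted p of 1 over all genes tested. Peak numbers did not overlap for 2.33% of all genes tested in RPTEC and for 2.37% in 786-O, where no SLC25A gene was among them. Of the regions of SLC25A16, the one at chr10:68483453-68483912 was called in 3 of the 4 SETD2-expressing libraries of RPTEC and the others in at most 2. In 786-O SLC25A16 had 0 peaks in WT and SETD2KO-1, 0 and 2 in SETD2KO-2 and 0 and 1 in SETD2KO-1R.

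The test of whether SETD2KO against WT differed between the cell lines called no SLC25A gene and 2.10% of all genes tested, with 2 SLC25A genes of 35 at an unadjusted p under 0.05, below the 11.0% of all genes tested. The largest values were 2.06 ± 0.72 for SLC25A16 (SE, adjusted p = 0.29), 1.04 for SLC25A33 and 1.02 for SLC25A25, and -1.0 ± 0.30 for SLC25A40 (SE, adjusted p = 0.18), -0.71 for SLC25A44 and -0.54 for SLC25A13.

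At the level of regions, peaks were merged over the 8 libraries of a cell line, and none of the 145 SLC25A regions of 786-O or the 112 of RPTEC was called in all 4 SETD2KO and no SETD2-expressing library or the reverse. Such regions made up 0.432% of the 65991 regions of protein-coding genes in 786-O and 0.408% of the 59064 in RPTEC. Of the SLC25A regions, 13 (8.97%) in 786-O and 12 (10.7%) in RPTEC were called in all 8 libraries, against 10.6% and 8.87% of regions in protein-coding genes.

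The best peak of SLC25A46 in 786-O was compared as well, a gene singled out after its values were seen. Its best-peak percentile was 59.1 and 58.0 in WT, 43.7 and 32.1 in SETD2KO-1, 14.5 and 40.2 in SETD2KO-2, and 79.2 and 70.0 in SETD2KO-1R, so that the SETD2KO and SETD2-expressing values did not overlap. It was the 1 such gene of the 14 SLC25A genes with a peak in all 8 libraries of 786-O, where 4.57% of all such protein-coding genes did not overlap. The difference was -33.9 ± 11.2 percentile points (SE), with an adjusted p of 0.26 in limma, while its peak number differed by -0.32 ± 0.32 on the log2 scale. In RPTEC the values overlapped, with 39.0 and 63.8 in WT, 58.5 and 50.3 in SETD2KO-1, 70.0 and 44.2 in SETD2KO-2, and 38.6 and 23.1 in SETD2KO-1R. Of the 35 peaks of SLC25A46, 8 also lay in TMEM232.

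**Figure D4:**
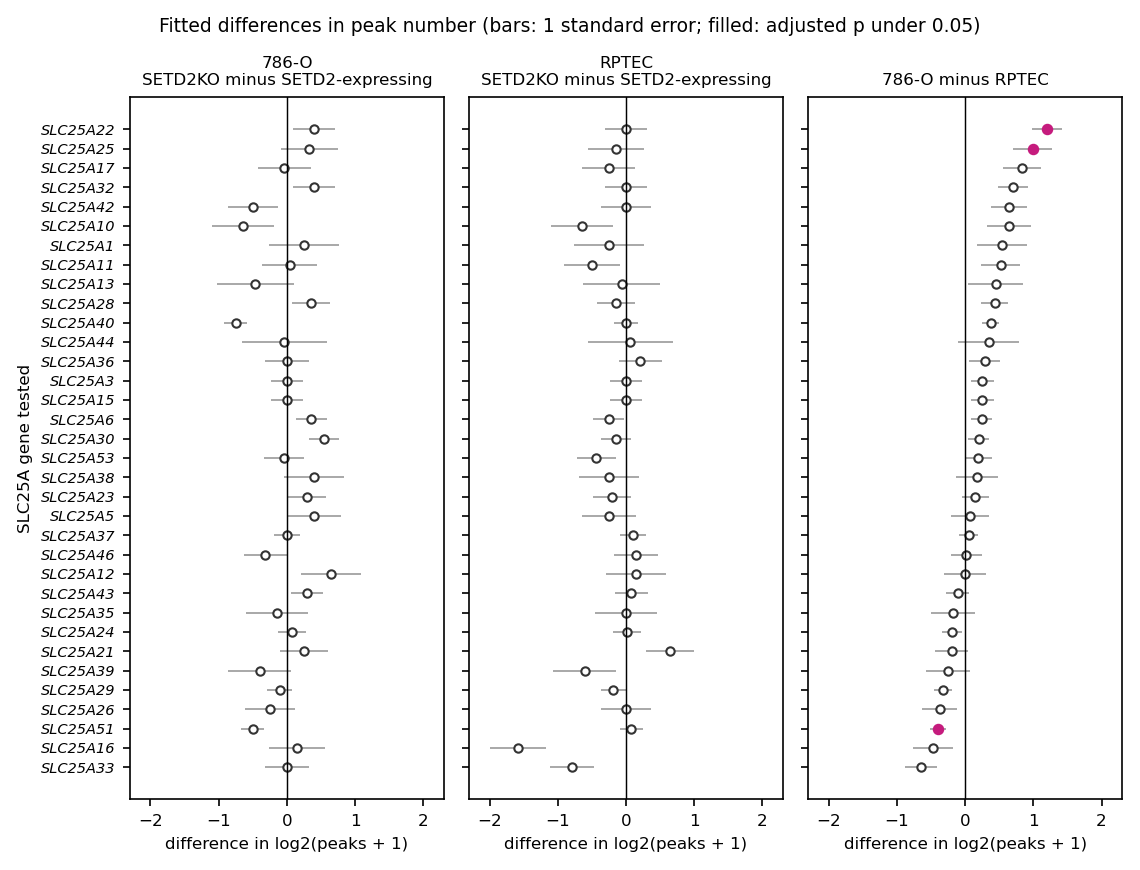
Fitted difference in log2(peaks + 1) with its standard error for 34 of the 35 SLC25A genes tested, for SETD2KO minus SETD2-expressing libraries in 786-O (left) and RPTEC (middle) and for 786-O minus RPTEC (right); filled points have an adjusted p under 0.05. No point is filled in the left and middle panels and 3 are in the right one; SLC25A16 at -1.58 lies farthest from 0 in the middle panel.

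The cell lines were then compared. In 786-O against RPTEC, over all 8 libraries of each, 3 SLC25A genes were higher in 786-O and 1 was lower, where 16.8% of all genes tested were called, 10.8% higher and 6.02% lower. The share of SLC25A genes called, 4 of 35, is not above that background, nor are the 10 of 35 at an unadjusted p under 0.05, where 31.2% of all genes tested were. The median difference was 0.20 over the SLC25A genes and 0.20 over all genes tested, and with an equal number of top-scored peaks from each library these medians were 0.05 and 0.00. The lists of RPTEC are shorter, and none of the 4 calls held with an equal number of top-scored peaks from each library.

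SLC25A22, which imports glutamate with a proton, had 1 and 0 peaks in WT, 2 and 1 in SETD2KO-1, 3 and 1 in SETD2KO-2 and 3 and 1 in SETD2KO-1R of 786-O, and 0 in all 8 libraries of RPTEC. All 12 of its peaks were in 786-O, so it met the filter on low values through that group alone, and the tests that follow are given as a description. The fitted difference was 1.20 ± 0.22 (SE) on the log2(peaks + 1) scale (limma adjusted p = 0.0043), and the call held without each of the 16 libraries in turn. The exact permutation test gave an adjusted p of 0.030. With an equal number of top-scored peaks from each library the difference was 0.62 and did not pass (adjusted p = 0.077), and with the upper 50% of each list by score it was 0.62 (adjusted p = 0.084). Its main region, chr11:795010-795592, which spans the alternative start named above, was called in 6 libraries of 786-O and none of RPTEC.

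SLC25A25, the calcium-regulated ATP-Mg/phosphate carrier SCaMC-2, had 3 and 1 peaks in WT, 4 and 3 in SETD2KO-1, 5 and 1 in SETD2KO-2 and 2 and 3 in SETD2KO-1R of 786-O. In RPTEC it had 1 and 2, 0 and 1, 1 and 1, and 1 and 0 in the same order, so that the ranges overlapped. The difference was 0.99 ± 0.29 (SE, limma adjusted p = 0.046), and the call held without 4 of the 16 libraries only, with an adjusted p of up to 0.10 for the others. With an equal number of top-scored peaks the difference was 0.32 (adjusted p = 0.58). Its region near the gene end, chr9:128106925-128108321, was called in 7 libraries of 786-O and 6 of RPTEC, and the other regions were called in 786-O alone, in 1 to 3 libraries each.

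SLC25A51, which carries NAD+ into the matrix, was lower in 786-O. It had 2 and 3 peaks in WT, 1 and 1 in SETD2KO-1, 2 and 2 in SETD2KO-2 and 2 and 3 in SETD2KO-1R of 786-O, and 3 and 3, 2 and 3, 4 and 3, and 2 and 3 in RPTEC. The difference was -0.39 ± 0.12 (SE, limma adjusted p = 0.047), and the call held without 5 of the 16 libraries, with an adjusted p of up to 0.096 for the others. With an equal number of top-scored peaks it was -1.07 (adjusted p = 0.082). All 39 of its peaks also lay in the span of PAICSP1. Among the genes that did not pass, SLC25A17, a peroxisomal carrier of coenzyme A, FAD and NAD+, differed by 0.83 (adjusted p = 0.065), SLC25A33 by -0.65 (adjusted p = 0.082) and SLC25A16 by -0.47 (adjusted p = 0.32). All 6 peaks of SLC25A33 were in RPTEC, so it met the filter on low values through that group alone. Its value is given as a description.

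**Figure D5:**
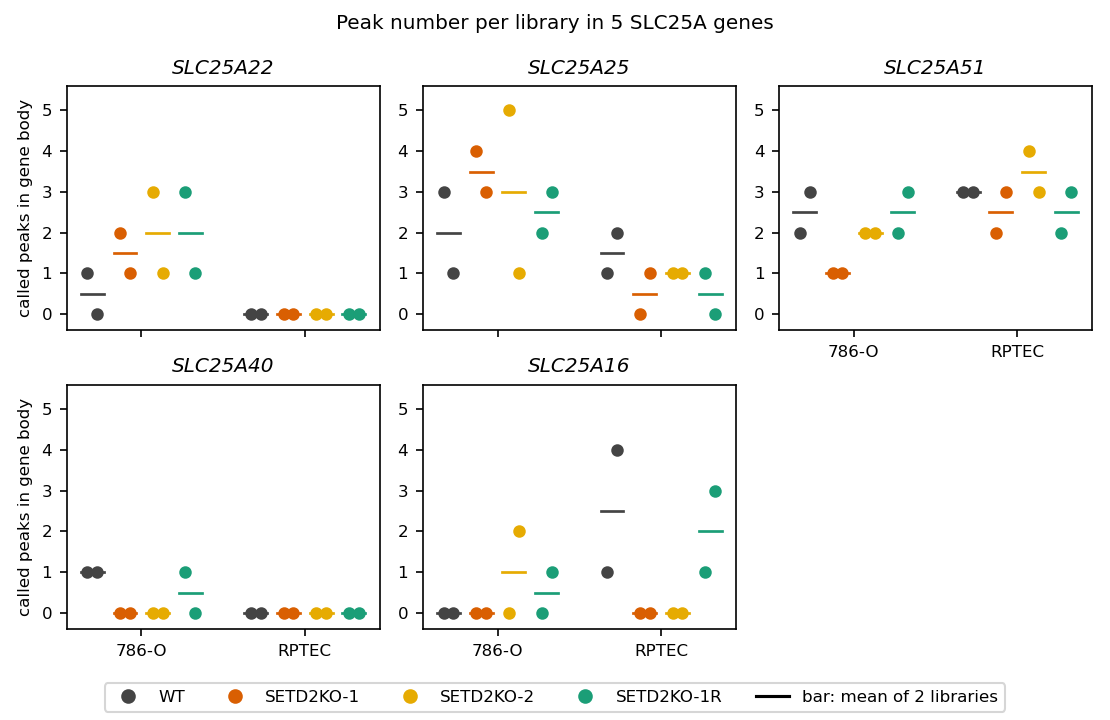
Called peaks in the gene body per library for 5 SLC25A genes, which passed in 786-O against RPTEC (SLC25A22, SLC25A25, SLC25A51), in 786-O SETD2KO against WT (SLC25A40), or had no overlap between SETD2KO and SETD2-expressing libraries of RPTEC (SLC25A16). Points are libraries, colours the lines and bars the means of 2 libraries; SLC25A22 is at 0 in every RPTEC library.

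No SLC25A region was called in all 8 libraries of one cell line and none of the other, a pattern seen in 0.290% of regions in protein-coding genes. No SLC25A gene had peak numbers that did not overlap between the cell lines, as 1.98% of all genes tested had. Among the nearest were a region of SLC25A29 at chr14:100300811-100301890, called in 7 libraries of RPTEC and none of 786-O, and that of SLC25A22 above. A region over the start of SLC25A10 at chr17:81711628-81712512 was called in 6 libraries of 786-O and 1 of RPTEC, and one over the start of SLC25A6 at chrX:1392041-1392998 likewise in 6 and 1. The region of SLC25A17 near its start, chr22:40817219-40817996, was called in all 8 libraries of 786-O and 3 of RPTEC.

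Peaks of several carriers cannot be assigned to 1 gene, since the lists hold no strand. Of the 825 SLC25A peaks, 86 overlapped another gene and 23 another protein-coding gene. The latter were 8 peaks of SLC25A46 in TMEM232, 6 of the 9 of SLC25A11 in RNF167, 3 of the 31 of SLC25A6, and 2 each of SLC25A32 in DCAF13 and SLC25A35 in RANGRF, with 1 each of SLC25A40 in DBF4 and SLC25A53 in ZCCHC18. The peaks of SLC25A28 at LOC105378450, 9 of 48, were the largest such group beside SLC25A51 among the non-coding overlaps.

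Genes that work beside the carriers were counted the same way. Of 5 members of the family under other symbols, 4 had a peak, with MTCH1 in 15 libraries and the uncoupling protein UCP1 in none. Of 16 genes that import carriers into the inner membrane, 14 had a peak, and TIMM8A, TIMM8B, TIMM29 and AGK had one in all 16. In this group TIMM10B, a small chaperone of the intermembrane space, had 1 and 1 peaks in WT and 0 in all 4 SETD2KO libraries of 786-O, and the same in RPTEC. Its SETD2KO-1R libraries had 0 and 1 peaks in 786-O and 0 in both of RPTEC, and it was not called in SETD2KO against SETD2-expressing in either cell line. It was the 1 gene of 13 tested that passed in SETD2KO against WT in each cell line, where 2.07% (786-O) and 2.25% (RPTEC) of all genes tested were called. Because its 5 peaks, 1 per library, all lay in SETD2-expressing libraries, it met the filter on low values through that group alone, and no direction is drawn from the call. Of 14 other inner-membrane transporters all had a peak, and MCU, the pore of the calcium uniporter, its partner MICU2, LETM1 and SFXN5 had one in all 16. SFXN1, a serine transporter, was 1.08 ± 0.25 (SE) higher in 786-O than RPTEC (adjusted p = 0.016), and in that comparison 4 of these 14 transporters were higher and none lower, against 1 of the 13 import genes tested (TOMM22, higher) and 10.8% higher and 6.02% lower over all genes tested.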

How the data were processed

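The processed data were 16 lists of called m6A peaks, 1 per IP library; the 16 Input samples have no list of their own. According to the study's methods and the labels, reads were aligned with STAR, counted with HTSeq, scaled by an E. coli RNA spike-in, and peaks of IP over Input were called with MACS2 per library at a q-value of 0.05, on hg38. The deposited score of a peak is a whole number of unstated scale and served only for ranks within a list. Peak p-values, q-values and fold columns are 0 throughout and were not used. Depth is unknown, since no reads are given, so no interval was set on a single peak.

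Peaks were assigned to gene bodies of the RefSeq table (GRCh38.p14, without exons or strand, the strand of 40 SLC25A genes being read from the promoter table). Peak numbers were tested with limma 3.58.1 (R 4.3.3; lmFit, eBayes with trend) as log2(peaks + 1), in 1 fit of 8 line means, for genes with a peak in at least 2 libraries. The fit was checked on simulated data, with changes planted only in genes with a mean of at least 2 peaks per library. That check does not cover sparser genes such as SLC25A40 and SLC25A22. Where replicates of a sparse gene are equal, the fitted spread is small, and such calls rest on few peaks. The differential read test of the study was not repeated, as it needs reads. The alternatives were an equal number of top-scored peaks from each library (19249), the upper 50% by score, overlap of 50 bp, the summit, the best-peak percentile, a pseudocount of 0.5, filters at 1 and 8 libraries, each cell line alone, a replicate block, an exact two-sided permutation test, regions merged within 100 bp, and each library left out. Named genes were those with a peak in all or no libraries, those past adjusted p 0.05, the 3 largest rises and falls per comparison, those without overlap between SETD2 groups, the 5 highest and 3 lowest by best-peak percentile, those with status-specific regions, the ADP/ATP carriers and those overlapping other genes. Some genes that these rules name, and the plots of them, are not reported here, though all counts include them. Members and lists were chosen with earlier results of these data known. Tables were made in Python 3.11.15 with pandas 2.3.3, arrays and permutations with NumPy 2.4.6 and plots with Matplotlib 3.10.9.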

Additional observations from a re-analysis of the deposited data

Results flagged for a closer look

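In groups of 4 libraries, 1 library stood apart from the other 3 in 4 of 56 cases examined, where chance gives about 1 in 20. Peaks in SLC25A genes per 10000 peaks of the list were 15.1 in 786-O WT replicate 2, against 18.7 in each of the other SETD2-expressing libraries of 786-O. The median best-peak percentile of the SLC25A genes was 79.2 in RPTEC SETD2KO-1 replicate 1, against 66.8 to 68.7 in the other SETD2KO libraries of RPTEC. The best-peak percentile of SLC25A51 was 59.9 in RPTEC SETD2KO-1R replicate 1, against 86.4 to 89.3 in the other SETD2-expressing libraries. That of SLC25A43 was 41.6 in 786-O SETD2KO-1 replicate 1, against 65.5 to 70.0 in the other SETD2KO libraries.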

How the results depend on the processing

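The number of SLC25A genes past the adjusted threshold was recomputed under each alternative. In 786-O SETD2KO versus WT it was 1 and became 0 with an equal number of top-scored peaks, the upper 50% by score, the summit inside the gene, the best-peak percentile, the filter at 8 libraries and the cell line alone, and lay at 0 when any library was left out. With the replicate block it was 1, but the gene was SLC25A22, higher in SETD2KO (0.90, adjusted p = 0.018), and not SLC25A40. In 786-O versus RPTEC it was 4 and became 1 with an equal number of top-scored peaks (SLC25A10), 2 with the upper 50% by score (SLC25A10 and SLC25A29, so that none of the 4 calls held), 2 with the best-peak percentile (SLC25A22 and SLC25A10), 1 with the filter at 8 libraries (SLC25A25), 1 with the exact permutation test (SLC25A22) and 3 with the replicate block (SLC25A22, SLC25A11 and SLC25A26), was 3 with the summit inside the gene and with no filter (without SLC25A51 in both) and with a pseudocount of 0.5 (without SLC25A25), and ranged from 2 to 6 with libraries left out. From 0, it became 1 in RPTEC SETD2KO versus WT with an equal number of top-scored peaks (SLC25A16, adjusted p = 0.042), and 1 in RPTEC SETD2KO-1R versus SETD2KO-1 and in RPTEC SETD2KO versus SETD2-expressing in the cell line alone (SLC25A11 in both). With libraries left out it ranged from 0 to 1 in 786-O SETD2KO-1R versus SETD2KO-1 and in SETD2KO versus SETD2-expressing of both cell lines (SLC25A40 without SETD2KO-1R replicate 2 of 786-O in both comparisons and without replicate 1 in the second alone, SLC25A33 without RPTEC SETD2KO-1R replicate 2). SETD2-dependent SLC25A regions in 786-O went from 0 to 1 with an equal number of top-scored peaks and ranged from 0 to 1 with libraries left out, as in RPTEC (0 to 1).

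No called SLC25A gene changed direction under 110 alternatives, and 50 of these lost the call. The replicate numbers gave no pairing across lines, since correlations of replicate deviations between lines ranged from -0.18 to 0.18. Over all genes, the filter at 8 libraries left 54 calls of 263 in 786-O SETD2KO versus WT, 89 of 352 in RPTEC SETD2KO versus SETD2-expressing and 21 of 266 in the difference between cell lines; the lists give no depth, so a peak that was missed cannot be told from one that was absent.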
